A study of Arabidopsis thaliana with 9 samples.

Results

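The plastid-encoded small ribosomal subunit genes (rps) of Arabidopsis thaliana were described in wild-type plants and in transgenic plants that carry an RNA interference (RNAi) construct against MSH1. The members were taken from the platform's probe-to-gene table as every probe set whose 1 listed gene lies on the plastid genome and has a lowercase symbol beginning with rps. This gave 8 genes (rps2, rps3, rps4, rps14, rps15, rps16, rps18 and rps19) among 69 plastid-encoded genes and 22746 probe sets tested. The probe sets for rps7 and rps12 are listed under 2 plastid gene numbers each and so fall outside the rule.

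All 9 arrays were of accession Col-0 and of the above-ground part of greenhouse plants aged 8 weeks, kept on a cycle of equal day and night. The wild-type group, the variegated RNAi group and the stunted RNAi group held 3 biological replicates each. The labels name the RNAi groups by phenotype alone. The promoter that drives the construct and the number of independent lines are not given in the sources used here, and no probe set of MSH1 was analysed, which leaves its suppression unchecked. Of 6 green-leaf marker genes set down for a check of the tissue, the Rubisco activase gene RCA had a named probe set, and it lay between 12.52 and 13.02 on every array, near the top of the scale. Of 6 root markers PYK10 had one, at 3.78 to 4.45 on the wild-type and variegated arrays and 5.51 to 5.98 on the stunted arrays, and it was higher in stunted plants by 1.50 (adjusted p = 0.000875). Its part in the rps results was not tested. None of 5 flower markers had a named probe set.

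Plastids carry their own genome and a bacterial type of ribosome. Its small subunit reads the messenger RNA and is built from a plastid-encoded 16S rRNA, the plastid-encoded rps proteins and further proteins that are made in the cytosol from nuclear genes and imported. Plastid genes are transcribed by a plastid-encoded polymerase (rpoA, rpoB, rpoC1 and rpoC2) and by nuclear-encoded phage-type polymerases, largely as long joint transcripts that are then processed, and genes of the translation apparatus are known for a larger part played by the phage-type polymerases than photosynthesis genes. MSH1 is a nuclear-encoded MutS homologue of mitochondria and plastids whose loss is known to permit recombination of the organelle genomes.

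The values are log2 expression values, so a difference of 1 is a 2-fold change of signal. A change passed the test at a limma p-value under 0.05 after Benjamini-Hochberg adjustment over all 22746 probe sets, and each change is given with its moderated standard error (SE). In a whole-tissue extract, more plastid genome copies or plastids in a plant and more transcript from each copy cannot be told apart.

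In stunted plants rps2 and rps4 rose, by 2.54-fold and 2.08-fold over wild type, and the other 6 rps genes did not pass. Among all probe sets 9.66% passed in this comparison and 4.91% passed as higher. In variegated plants no rps gene passed against wild type, where 0.444% of all probe sets did, and none passed between the stunted and the variegated plants, where 1.74% did. The plot of the 8 genes on the 9 arrays shows that the genes did not move as a block: rps2, rps4, rps15, rps16 and the dim rps14 were at their lowest average in wild type, whereas rps3, rps18 and rps19 were at their lowest average in variegated plants.

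**Figure D1:**
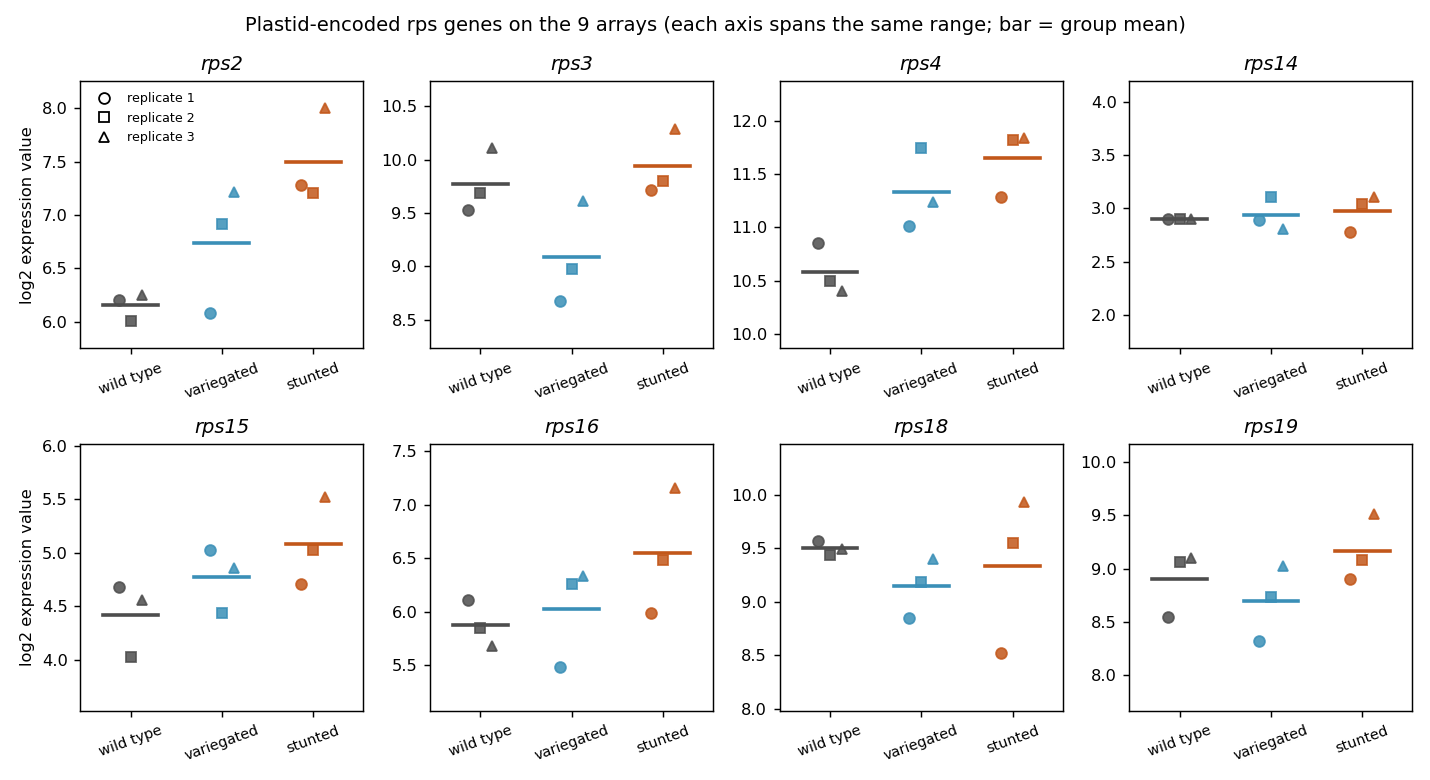
Log2 expression value of each plastid-encoded rps gene (1 panel each, all axes spanning the same range) on the 9 arrays, with groups on the horizontal axis, replicates as symbols and a bar at the group mean. All 3 stunted arrays lie above all 3 wild-type arrays for rps2, rps4 and rps15, the values of rps14 stay between 2.78 and 3.11, and stunted replicate 3 is the highest of the 9 arrays in 7 panels.

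The ribosomal proteins S4 and S15 are known from Escherichia coli as primary binders of 16S rRNA, which begin the assembly of the small subunit. The S4 gene rps4 had 10.86, 10.50 and 10.40 in wild-type replicates 1 to 3, 11.01, 11.75 and 11.24 in the variegated replicates and 11.29, 11.81 and 11.84 in the stunted replicates. Every RNAi array lay above every wild-type array, while the variegated and stunted arrays overlapped. Against wild type, rps4 rose by 1.06 in stunted plants (SE 0.21, adjusted p = 0.0153), from 10.59 ± 0.24 to 11.65 ± 0.31 (mean ± SD, n = 3). In variegated plants its difference was 0.75 (SE 0.21), which did not pass after adjustment (adjusted p = 0.19). The stunted and variegated groups differed by 0.31 (95% interval -0.17 to 0.80, adjusted p = 0.566).

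For rps15, which encodes S15, the wild-type arrays had 4.68, 4.02 and 4.56, the variegated arrays 5.03, 4.44 and 4.85 and the stunted arrays 4.71, 5.03 and 5.52. The 3 stunted arrays were all above the wild-type arrays, the lowest of them by a small margin, and the variegated arrays overlapped with both. The stunted difference of 0.67 (SE 0.24) did not pass (adjusted p = 0.132), nor did the variegated difference of 0.36 (SE 0.24, adjusted p = 0.638). In 13 alternative settings of the fit the stunted difference of rps15 passed in 1, with array weights (0.83, adjusted p = 0.048). Over these settings the difference went down to 0.395 and the adjusted p up to 0.511. The stunted difference passed in 0 of 9 omissions of a single array.

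S16 and S18 are, in Escherichia coli, proteins of the body and of the platform of the small subunit. The S16 gene rps16 had 6.11, 5.84 and 5.68 in wild type, 5.48, 6.26 and 6.33 in variegated plants and 5.99, 6.49 and 7.16 in stunted plants. Its groups overlapped, since stunted replicate 1 lay below wild-type replicate 1, and its stunted difference of 0.67 (95% interval -0.02 to 1.35, adjusted p = 0.234) did not pass. The variegated difference was 0.15 (95% interval -0.54 to 0.83, adjusted p = 0.905).

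The S18 gene rps18 differed from the others in its order of groups, with the highest average in wild type. It had 9.57, 9.43 and 9.50 on the wild-type arrays, 8.85, 9.19 and 9.40 on the variegated arrays and 8.52, 9.55 and 9.94 on the stunted arrays. All variegated arrays lay below all wild-type arrays, and the stunted arrays held both the lowest and the highest value of the 9. Neither the variegated difference of -0.35 (95% interval -1.04 to 0.33, adjusted p = 0.724) nor the stunted difference of -0.16 (95% interval -0.85 to 0.52, adjusted p = 0.825) passed. Without stunted replicate 1 the stunted difference of rps18 was 0.24.

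S2, S3, S14 and S19 are known from Escherichia coli as proteins in and near the head of the small subunit, and S3 lines the channel by which the messenger RNA enters. The S2 gene rps2 had 6.20, 6.01 and 6.25 on the wild-type arrays, 6.08, 6.92 and 7.21 on the variegated arrays and 7.28, 7.21 and 8.00 on the stunted arrays. The stunted arrays were all above the wild-type arrays by about 1 or more, and the variegated arrays were spread between the groups, with replicate 1 at the level of wild type and replicate 3 at that of stunted plants. In stunted plants rps2 rose by 1.34 against wild type (SE 0.29, adjusted p = 0.0198), from 6.15 ± 0.13 to 7.50 ± 0.44 (n = 3). The variegated difference of rps2 was 0.58 (SE 0.29, adjusted p = 0.488), and stunted plants differed from variegated plants by 0.76 (SE 0.29, adjusted p = 0.241).

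The S3 gene rps3 had 9.52, 9.69 and 10.11 in wild type, 8.68, 8.98 and 9.61 in variegated plants and 9.72, 9.80 and 10.29 in stunted plants. The stunted arrays lay above all variegated arrays, and the wild-type arrays overlapped with both. The variegated difference from wild type was -0.68 (SE 0.25, adjusted p = 0.323), the stunted difference from wild type was 0.16 (95% interval -0.40 to 0.73, adjusted p = 0.784), and stunted plants differed from variegated plants by 0.85 (SE 0.25, adjusted p = 0.137). Of 13 alternative settings, the variegated difference of rps3 passed in 2, and the adjusted p reached 0.539 in the others. It was -0.53 (adjusted p = 0.0493) when the actin signal described further on was a covariate. With the replicate number as a block it was -0.68 (adjusted p = 0.0274). This difference passed in 0 of 9 omissions of a single array.

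The S19 gene rps19 showed the same order of group averages as rps3. Its values were 8.54, 9.06 and 9.10 in wild type, 8.32, 8.73 and 9.03 in variegated plants and 8.90, 9.08 and 9.51 in stunted plants. All 3 pairs of groups overlapped, and its differences from wild type were -0.21 in variegated plants (adjusted p = 0.785) and 0.26 in stunted plants (adjusted p = 0.573). Its widest difference, 0.47 between stunted and variegated plants (SE 0.22, adjusted p = 0.359), did not pass either. Among the 28 pairs of rps genes, rps18 with rps19 and rps3 with rps19 had the most similar profiles, with a mean absolute difference over the 9 arrays of 0.19 and 0.20 after each profile was centred on its own mean. The least similar pair was rps2 with rps18, at 0.60.

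The probe set of the S14 gene rps14 was dim, below the array medians of 3.37 to 3.43. All 3 wild-type arrays carried the same value, 2.90, the variegated arrays 2.90, 3.11 and 2.81 and the stunted arrays 2.78, 3.05 and 3.11. Such repeated values were common, since 52.4% of all probe sets had the same value on at least 2 arrays. A change in the rps14 transcript was not detectable at this signal (stunted difference 0.08, adjusted p = 0.757).

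**Figure D2:**
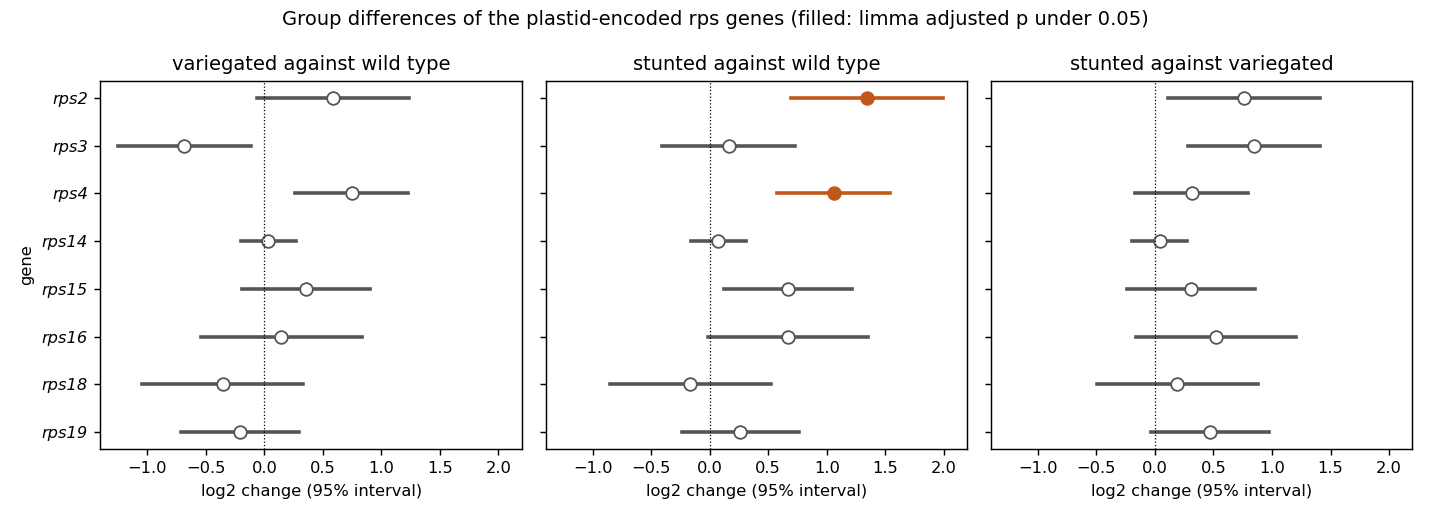
Log2 change of each rps gene (vertical axis) with its 95% interval from limma in the 3 comparisons, on 1 common horizontal scale. The filled points, rps2 at 1.34 and rps4 at 1.06 in stunted against wild type, passed the test, while in stunted against variegated all 8 points lie above 0 and none passed.

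Over the 8 genes, the median change was 0.09 in variegated and 0.46 in stunted plants against wild type, beside medians of 0.014 and 0.0053 over all probe sets. The change was above 0 for 5 and 7 of the 8 genes, where 54.8% and 51.6% of all probe sets were above 0. Stunted plants had the highest average for 7 of the 8 genes. Against variegated plants the stunted difference was above 0 for 8 of 8 rps genes (median 0.39), where 46.5% of all probe sets were above 0, and the same held for 47 of the 54 non-ribosomal plastid genes. With the actin signal described further on as a covariate, the differences of rps14, rps15, rps18 and rps19 in this comparison were below 0 (-0.0001, -0.038, -0.40 and -0.041), that of rps2 was 0.14 and that of rps3 0.17. Arrays did not overlap in stunted against wild type for 3 rps genes, all higher, where 11.9% of all probe sets were all higher, and in stunted against variegated for rps3, where 8.11% were. In variegated against wild type, 1 rps gene (rps4) was higher on all arrays and 1 (rps18) lower on all arrays, with 9.36% and 7.43% of all probe sets doing so. At an unadjusted p under 0.05, which 2633 of the 22746 probe sets met, 2 rps genes passed in variegated plants (rps3 and rps4), and between stunted and variegated plants 2 did (rps2 and rps3), with 3504 of all probe sets. Both comparisons with wild type use the same 3 wild-type arrays.

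The arrays of a group differed in a way shared by most of the 8 genes. Stunted replicate 3 was the highest stunted array for 8 of 8 and the highest of all 9 arrays for 7 of 8, with a tie for rps14. Stunted replicate 1 was the lowest of its group for 7 of 8, and variegated replicate 1 for 6 of 8. Without stunted replicate 3 the change of rps2 was 1.09 (adjusted p = 0.0553) and that of rps4 was 0.96 (adjusted p = 0.0523).

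Other plastid transcripts moved between the arrays as well. The mean over the 54 plastid genes that encode no ribosomal protein was 8.18, 7.97 and 7.59 on the wild-type arrays, 7.69, 8.15 and 8.23 on the variegated arrays and 7.82, 8.35 and 8.73 on the stunted arrays. Its groups overlapped, and stunted replicate 3 was highest here too. To place each rps gene against this level, the mean was subtracted from the gene's value on the same array. By this measure rps2 was higher than in wild type by 0.47 in variegated and 0.95 in stunted plants, and rps4 by 0.64 and 0.67. All variegated and stunted arrays of rps4 stayed above the wild-type arrays, at 3.01 to 3.60 and 3.10 to 3.46 against 2.53 to 2.82. The stunted arrays of rps2 also stayed above the wild-type arrays, at -1.14 to -0.54 against -1.98 to -1.34.

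By the same measure, rps18 had the most negative shift from wild type of the 8 genes in stunted plants, at -0.55. Its difference from the plastid mean was 1.39 to 1.91 in wild type, 1.04 to 1.17 in variegated plants and 0.70 to 1.20 in stunted plants, so that both RNAi groups lay below wild type on every array. For rps3 the average shift was -0.79 in variegated and -0.23 in stunted plants, with wild-type replicates that ranged from 1.34 to 2.53. For rps16 and rps15 the stunted shift was 0.28 in both genes. With the non-ribosomal plastid mean as a covariate in the limma fit, rps4 still passed in stunted plants (0.79, SE 0.17, adjusted p = 0.0292), whereas rps2 did not (1.03, SE 0.26, adjusted p = 0.0544). In that fit rps18 did not pass either, at -0.59 in stunted (adjusted p = 0.135) and -0.47 in variegated plants (adjusted p = 0.31). The share of all probe sets whose groups separate after the subtraction was not counted.

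**Figure D3:**
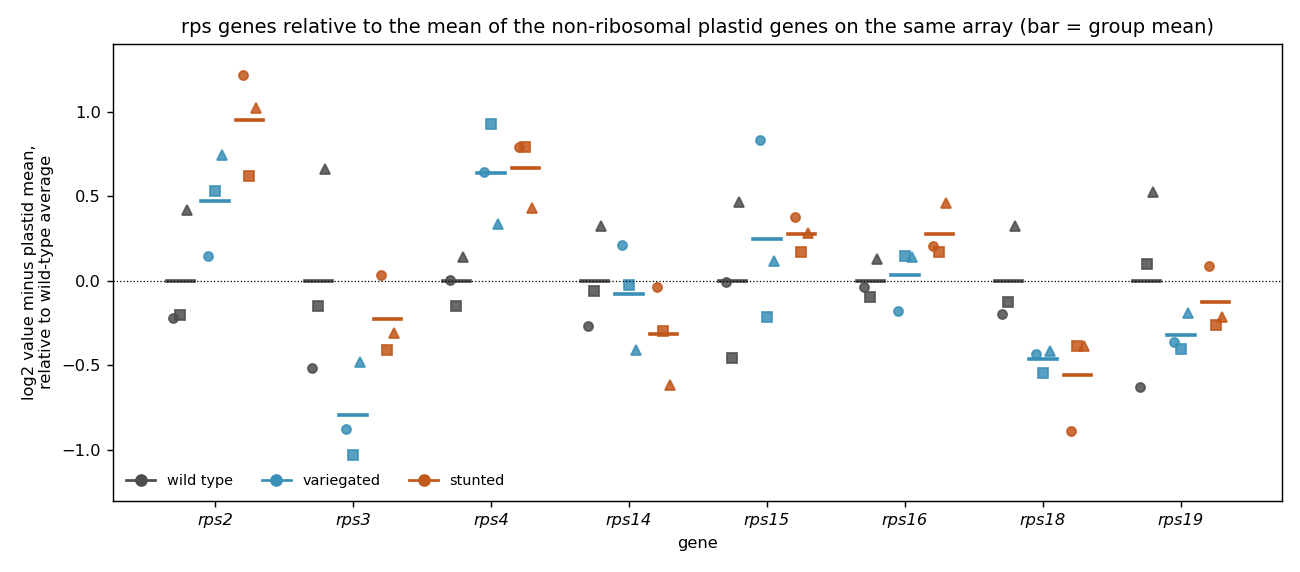
Log2 value of each rps gene minus the mean of the 54 non-ribosomal plastid genes on the same array, drawn relative to the wild-type average of that gene (vertical axis, log2), for each array (symbols are replicates 1, 2 and 3 as circle, square and triangle) with a bar at the group mean. The group means of rps2 and rps4 lie above 0 in both RNAi groups, at 0.47 and 0.95 and at 0.64 and 0.67, while those of rps18 lie at -0.46 and -0.55.

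Some control signals of RNA make-up and quality differed between the arrays. The control probe set for 25S rRNA had 4.25, 4.19 and 6.44 on the wild-type arrays, 4.49, 4.97 and 8.66 on the variegated arrays and 4.50, 8.99 and 8.58 on the stunted arrays (stunted against wild type, exact permutation p = 0.2, two-sided). The actin 3′ minus 5′ signal, which rises as RNA is shortened, was 1.11 to 1.56 in wild type, 0.95 to 1.45 in variegated and 1.42 to 1.95 in stunted plants, with the highest value on stunted replicate 3 (exact permutation p = 0.2). The same signal for ubiquitin was -0.68 to -0.50 in wild type and -0.56 to -0.27 in stunted plants (exact permutation p = 0.2), and that for GAPDH overlapped, at -0.17 to 0.03 and -0.16 to 0.11 (exact permutation p = 1). The smallest p that 3 arrays against 3 allow is 0.1. On stunted replicates 1 to 3, with 25S signals of 4.50, 8.99 and 8.58, rps2 was 7.28, 7.21 and 8.00 and rps4 was 11.29, 11.81 and 11.84. What part the 25S signal had in these values was not tested. With the 25S signal as a covariate the stunted change of rps2 was 1.06 (adjusted p = 0.062) and that of rps4 0.97 (adjusted p = 0.0526). With the actin signal as a covariate they were 0.86 (adjusted p = 0.0841) and 1.02 (adjusted p = 0.0683).

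**Figure D4:**
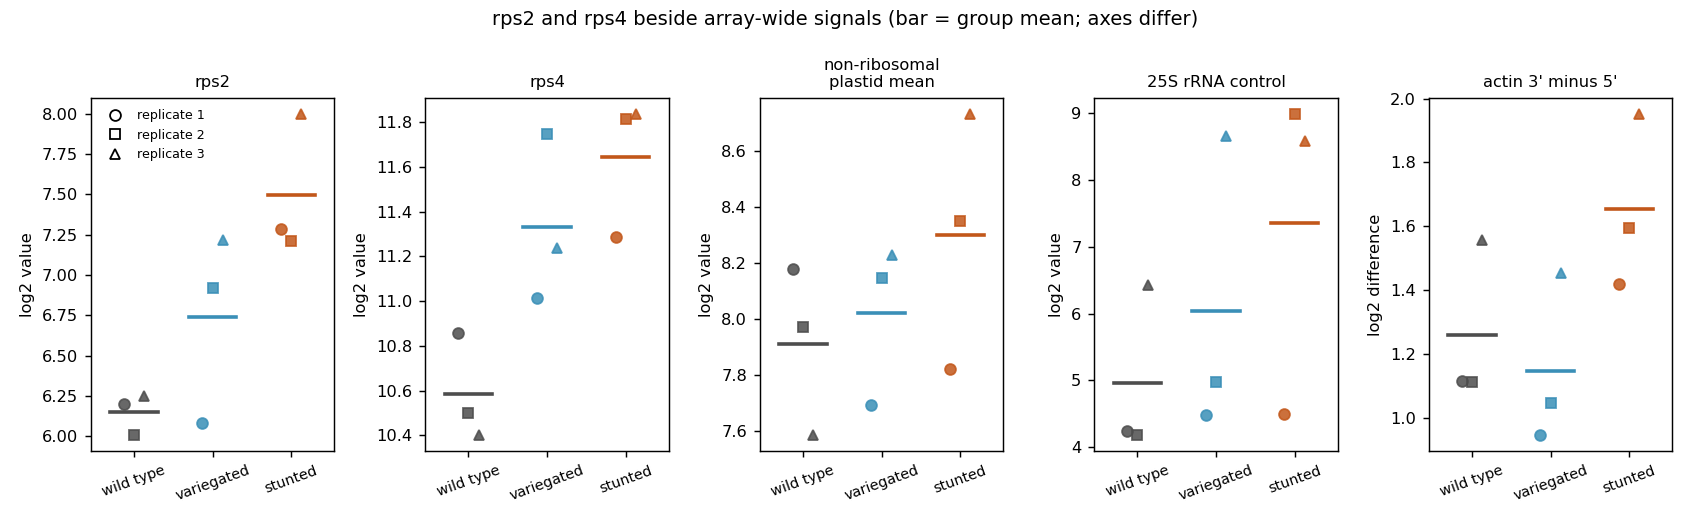
Values of rps2, rps4, the mean of the non-ribosomal plastid genes, the 25S rRNA control and the actin 3′ minus 5′ signal on the 9 arrays (log2 scale, axes differ between panels), with replicates as symbols and a bar at the group mean. The 25S signal is 4.50, 8.99 and 8.58 on stunted replicates 1 to 3, and on each of them rps2 and rps4 lie above all wild-type arrays. Stunted replicate 3 has the highest plastid mean (8.73) and actin signal (1.95).

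Leaving out single arrays also moved the 2 calls across the threshold. The stunted change of rps2 lay between 1.09 and 1.49 over the 9 omissions and passed in 6 of them. These include the 3 omissions of a variegated array, which is outside the comparison and leaves the change at 1.34. Among the compared arrays, it passed without wild-type replicate 3 (adjusted p = 0.0486), stunted replicate 1 (0.021) or stunted replicate 2 (0.039). It was lost without wild-type replicate 1 (adjusted p = 0.0566), wild-type replicate 2 (0.0719) or stunted replicate 3. The change of rps4 lay between 0.96 and 1.24 and passed in 5 of the 9, again with the 3 omissions of a variegated array among them. Among the compared arrays, it passed without wild-type replicate 1 (adjusted p = 0.0232) or stunted replicate 1 (0.00614). It was lost without wild-type replicate 2 (0.0576), wild-type replicate 3 (0.0534), stunted replicate 2 (0.0643) or stunted replicate 3.

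Neighbouring plastid genes were read beside each rps gene, since many are transcribed jointly. The nearest genes with a probe set of their own were taken from the gene order of the reference table of assembly TAIR10.1. Next to rps2 lies rpoC2, a large subunit of the plastid-encoded RNA polymerase, which rose in stunted plants by 0.98 (SE 0.15, adjusted p = 0.00407), from 4.65 to 4.97 on the wild-type arrays to 5.60 to 6.14 on the stunted arrays. On the other side lies atpI, a subunit of the ATP synthase whose cluster is known to be co-transcribed with rps2. Its probe set was dim, at 2.52 to 3.57 over the 9 arrays, and its stunted difference was 0.25 (adjusted p = 0.586). Next to rps4 lies ycf3, a photosystem I assembly factor, which rose in stunted plants by 1.22 (SE 0.25, adjusted p = 0.017), and the NDH complex gene ndhJ on its other side had a difference of 0.69 (SE 0.38, adjusted p = 0.333).

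The rps genes that did not pass lay in some cases beside genes that did. Between rps18 and rpl20, a large subunit gene transcribed from the other strand, the contrast was wide: rpl20 rose by 1.49 in variegated (SE 0.20, adjusted p = 0.0223) and 1.60 in stunted plants (SE 0.20, adjusted p = 0.00203), where rps18 had -0.35 and -0.16. Its other neighbour rpl33, known to be co-transcribed with rps18, had -0.42 and -0.11 (adjusted p = 0.699 and 0.898).

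In the long ribosomal protein cluster that holds rps19, rpl22, rps3 and rpl16 in this order, the variegated differences were -0.21, -0.77, -0.68 and 1.03, none of which passed. In stunted plants they were 0.26, 0.11, 0.16 and 1.70, and rpl16 alone among these 4 genes passed (SE 0.42, adjusted p = 0.0368). Thus rpl22 and rps3, neighbours in the cluster, had close values, and rpl16 on the other side of rps3 did not. Around rps14, psaB (photosystem I) and psbZ (photosystem II) had stunted differences of 0.73 and 0.63 that did not pass (adjusted p = 0.333 and 0.209). Around rps16, the intron maturase gene matK had 0.65 and psbK 0.22 (adjusted p = 0.12 and 0.685). Next to rps15, ndhH had 0.28 (adjusted p = 0.605), and ndhF, the nearest measured gene beyond rps19 with 6 genes between, had 0.13 (adjusted p = 0.571).

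**Figure D5:**
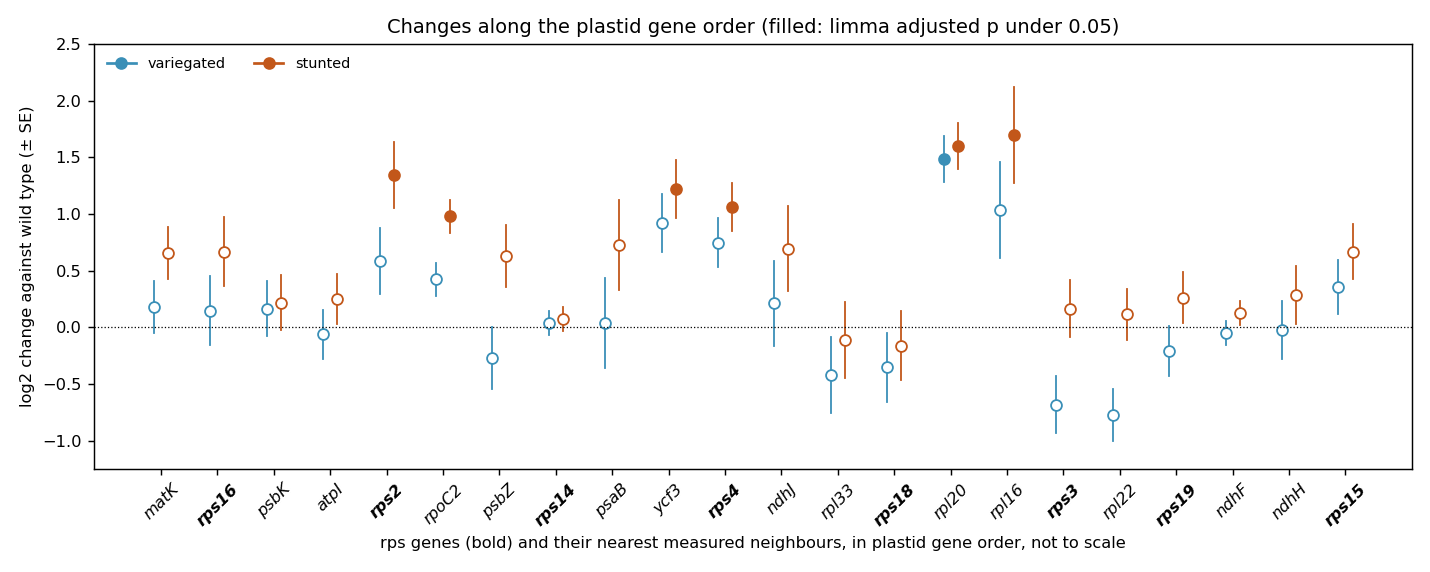
Log2 change against wild type with its SE for the rps genes (bold) and their nearest measured neighbours, in the order of the plastid gene table and not to scale, for variegated and stunted plants. Filled points passed the test: in stunted plants rps2, rpoC2, ycf3, rps4, rpl20 and rpl16, and in variegated plants rpl20 at 1.49, beside rps18 at -0.35.

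The genes whose profile over the 9 arrays was most like that of rps2 were looked for among the other 13512 single-gene probe sets, by the mean absolute difference of centred log2 values. The closest was rpl14, a plastid-encoded large subunit gene, at 0.19. It was followed by AT3G22060 at 0.22, rpoC1, another polymerase subunit gene, at 0.23, AT4G33760 at 0.23 and AT3G17770 at 0.24. On the stunted arrays rpl14 had 6.86, 7.25 and 8.20 against 6.27, 6.53 and 6.21 in wild type (difference 1.098, adjusted p = 0.0917). The polymerase gene rpoC1 rose by 1.09 (adjusted p = 0.0234). The nuclear genes AT3G22060, AT4G33760 and AT3G17770 rose by 1.24, 1.09 and 1.103 (adjusted p = 0.00414, 0.00322 and 0.00564). Because these genes were picked for profiles like that of rps2, which rose in stunted plants, their rise was largely built into the choice. Their p-values are therefore not an independent test of a rise. Among the other rps genes rps16 took place 10, rps4 place 120, rps15 place 468, rps19 place 656, rps3 place 2721, rps14 place 4010 and rps18 place 7351. This measure favours profiles of the same size of change, so a flat profile such as that of rps14 counts as distant.

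The rest of the plastid translation and transcription apparatus was read from lists of genes. Of 7 plastid-encoded large subunit genes (rpl), 2 rose in stunted plants (rpl16 and rpl20), 5 did not pass, and the median change was 0.28. Of 4 polymerase genes (rpo), 2 rose in stunted plants, rpoC1 and rpoC2, and the median was 0.68. Of the 54 non-ribosomal plastid genes, which include the rpo genes, 5 rose: rpoC1, rpoC2, ycf3, the Clp protease gene clpP by 1.04 (adjusted p = 0.0215) and the ATP synthase gene atpA by 1.00 (adjusted p = 0.0427). The median of the 54 was 0.28, against 0.46 over the 8 rps genes. Among all probe sets 4.91% passed as higher in stunted plants, and 9.66% passed in either direction. No plastid gene of these lists passed as lower. Of the 54, 46 had a change above 0, while psaJ had -0.44 and psbF and psbE each had -0.39 (adjusted p = 0.446, 0.0768 and 0.0877).

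Nuclear genes of the plastid small subunit, whose proteins join the rps products in the ribosome, were measured for 3 of 14 listed loci, and none passed in any comparison. In stunted plants AT1G64510 (S6) had a difference of 0.16 (adjusted p = 0.44) and AT3G13120 (S10) of 0.11 (adjusted p = 0.496), and the 3 changes lay between 0.01 and 0.16. Of 7 measured nuclear genes of the plastid large subunit, AT4G17560 and AT3G54210, which encode L19 and L17, rose in stunted plants by 0.36 (SE 0.08, adjusted p = 0.0232) and 0.30 (SE 0.07, adjusted p = 0.026), and 5 did not pass. FUG1, the plastid translation initiation factor of the IF2 type, rose in stunted plants by 0.70 (SE 0.18, adjusted p = 0.0376), and the initiation factor gene AT2G24060 (IF3 type) had 0.49 (adjusted p = 0.0717). The phage-type polymerase gene AT5G15700, whose product serves plastids and mitochondria, was the 1 measured gene of 8 in the transcription list and had 0.22 in stunted plants (adjusted p = 0.159). In variegated plants no gene of these nuclear lists passed.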

How the data were processed

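RNA of 9 arrays was hybridised, per the labels' protocols, as biotinylated cRNA on Affymetrix arrays. The deposited values are log2 expression values per probe set, and RMA and the affy package are named in the submitters' processing notes without versions. No source used here states a background step, so changes near the lowest values (minimum 1.98) can be compressed or stretched. Precision is limited by the number of arrays. The limma p-values set a group difference against the spread between biological replicates, pooled over the 3 groups and moderated over all probe sets.

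Of 22810 probe sets, 64 controls were set aside. The remaining 22746 were fitted over all 9 arrays, with a mean for each group, in limma 3.58.1 in R 4.3.3, with empirical Bayes moderation and two-sided tests, adjusted within each comparison. The procedure was tested on simulated data with independent normal noise, which held none of the array shifts shared by genes that are described above. Gene names came from the platform's table, which is old, and 13513 probe sets (59.4%) had 1 gene. No build is named in the deposited files, so positions are not printed, and the gene order came from the reference table of assembly TAIR10.1. Within groups the arrays correlated at r = 0.9855 to 0.9946 and between groups at 0.9738 to 0.9912.

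All 8 members were named, with their nearest measured neighbours, the 2 list members of smallest p and the 5 profiles most like rps2. Nuclear lists were matched by locus code, with the brightest probe set per gene. Lists were described by counts and medians with no set test. The members and lists were chosen with earlier results of these data known. The list of mitochondrion-encoded ribosomal protein genes, defined by symbol, held no gene under the single-gene rule and was not used here. The guard cell marker FMA lay between 3.68 and 3.93 on all arrays. Alternatives covered the replicate block, the groups fitted, moderation, weights, scaling, a filter on dim probe sets, covariates and single arrays left out.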

Additional observations from a re-analysis of the deposited data

Results flagged for a closer look

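Of the 3 plastid probe sets that the platform table lists with rps12 or rps7 under 2 gene numbers, and which the comparisons therefore do not use, 2 were higher in stunted plants than in wild type. One of the 2 probe sets for rps12, a gene known for trans-splicing of its transcript, had 9.10, 8.58 and 8.31 in wild type, 9.13, 9.86 and 9.87 in variegated plants and 9.40, 9.61 and 10.36 in stunted plants. It rose in stunted plants by 1.13 (SE 0.30, limma adjusted p = 0.0467), and its variegated difference of 0.95 did not pass (adjusted p = 0.233). The other rps12 probe set had a stunted difference of 0.73 (adjusted p = 0.289) and overlapping arrays.

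The probe set for rps7, which lies in the inverted repeat of the plastid genome, had 10.97, 10.55 and 10.68 in wild type, 11.05, 11.46 and 11.48 in variegated plants and 11.14, 11.42 and 11.95 in stunted plants. It rose in stunted plants by 0.77 (SE 0.21, adjusted p = 0.048), and its variegated difference of 0.60 did not pass (adjusted p = 0.289). Both calls were close to the threshold: over 9 omissions of a single array the rps12 probe set passed in 3 and the rps7 probe set in 1, and over 13 other settings they passed in 7 and 6. These settings were read for them after their values had been seen.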

How the results depend on the processing

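In stunted against wild type, the 2 rps calls numbered 0 without moderation, 0 with the 25S signal and 0 with the actin signal as a covariate, 1 with the bioB signal, 1 with the non-ribosomal plastid mean, and 0 to 2 over the 9 omissions of an array. The change of rps2 stayed between 0.86 and 1.35 and that of rps4 between 0.79 and 1.21 over the 13 other settings, passing in 8 and 10 of them. In variegated against wild type the count of 0 became 1 (rps3) with the actin signal as a covariate. Replicate numbers are shared between groups, and the labels name no shared batch. Deviations from the group mean correlated at r = 0.0045 to 0.2805 between same-numbered arrays. Between arrays of different number and group they correlated at -0.2797 to 0.1007. The main fit did not take same-numbered arrays as pairs, and whether they share a batch was not tested. With the replicate block, 1 rps gene passed in variegated against wild type (rps3), 2 in stunted against wild type and 2 in stunted against variegated (rps3 and rps19), while all calls numbered 191, 2889 and 940 in place of 101, 2197 and 396.

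The cause of these differences was not tested. Signs turned for genes that had not passed. In stunted against wild type, rps3 was at -0.18, -0.37 and -0.15 and rps19 at -0.0026, -0.14 and -0.015 with the 25S, actin and bioB signals in turn, and rps14 at -0.0085 with the plastid mean. In stunted against variegated, rps18 was at -0.037, -0.40 and -0.11 with the 25S signal, the actin signal and the plastid mean, rps14 at -0.0001 and -0.0201 with the last 2, and rps15 and rps19 at -0.038 and -0.041 with actin, where rps2 was at 0.14 and rps3 at 0.17 in place of 0.76 and 0.85. Over single omissions, with none passing, rps14 ran from -0.0506 to 0.10 and rps16 from -0.0087 to 0.42 in variegated against wild type. In stunted against wild type rps3 ran from -0.0145 to 0.33 and rps18 from -0.47 to 0.24, and in stunted against variegated rps14 ran from -0.0259 to 0.14 and rps18 from -0.11 to 0.60. Over all probe sets the 101, 2197 and 396 calls became 1, 797 and 32 without moderation, 349, 2934 and 1028 with array weights and 206, 1321 and 133 with the compared groups alone. They became 40, 1529 and 529 with bioB, 186, 1412 and 79 with actin, 155, 1631 and 465 with 25S, and 155, 1445 and 202 with the plastid mean. Over single omissions they ran from 10 to 206, 1241 to 2955 and 48 to 1404. Signal near the floor limits what can be said of rps14.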
